A study of Coryphaena hippurus with 21 samples.

Results

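The microRNAs miR-462 and miR-731 were followed across all libraries of a small RNA sequencing study of mahi-mahi (Coryphaena hippurus), a fast-growing open-ocean fish, exposed to Deepwater Horizon oil. All names of the families miR-462 and miR-731 were taken, whatever their species prefix, letter or arm. These were 2 names, ola-miR-462 and ola-miR-731 (ola stands for medaka), of 329 names in the 6 deposited count tables, and each stood once in every table. The 21 libraries came from whole larvae at 48 hours post fertilization (hpf), 3 libraries for each of 7 groups. Freshly fertilized embryos were placed in diluted HEWAF, a high-energy water-accommodated fraction made by blending oil with seawater, and kept there without renewal. The groups were slick oil, which had weathered at the sea surface, at 0.5% (L), 1% (M) and 2% (H), source oil, taken as it left the well, at 0.125% (L), 0.25% (M) and 0.5% (H), and control seawater with 0% oil. The titles of the source oil samples read mass, and source oil is meant by them here, as no oil besides slick and source is named. RNA came from pooled samples of offspring of captive wild-caught broodstock. Whether replicate libraries stem from separate beakers is not stated in the labels, so p-values measure the spread between these libraries, which may be technical.

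A miRNA pairs through its seed, a short stretch near its 5′ end, with messenger RNAs and lowers their stability or translation. In teleost fish miR-462 and miR-731 are encoded side by side. In zebrafish the pair is known to be raised by low oxygen through the hypoxia-inducible factor, and in rainbow trout by interferon and virus infection. Their seeds are those of the mammalian neighbours miR-191 and miR-425, and 0 of the 329 names here belong to miR-191 or miR-425. Genome positions and mature sequences of the pair were not used here.

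The exposed libraries held 3157670 to 8736995 counts and the controls 6105389 to 7897029 over the 6 tables. The members were counted 623 to 14286 times per library, and among 99 names counted in all 21 libraries they ranked 47 (ola-miR-462, mean 767 CPM) and 51 (ola-miR-731, 517 CPM) in abundance. CPM here are TMM-scaled counts per 1e6 counts over those 99 names. On the first principal component of the same names (51.0% of the variance) 7 libraries stood apart: all of source M and source H, and library L3 of source L. This set lay at 5.03 to 10.01 and the other 14 libraries at -5.15 to -2.06. It holds no slick and no control library, so its difference and the effect of source M and source H cannot be told apart. For whole larva, muscle (2 of 3 families), nervous system (2 of 2), endothelium (1 of 1) and white blood cells (1 of 3) had a name in all 6 tables, and red blood cells (0 of 2) did not. In such bulk samples fewer cells of a type and less RNA per cell cannot be told apart.

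The 2 members did not keep step with each other. Against control ola-miR-462 was higher in slick L and slick H (log2 fold changes 2.02 and 1.57) and lower in source M (-0.75). In these exposures 14.5%, 10.1% and 24% of all names were called. Over all names the call was lost when any of 5 (slick L), 2 (slick H) or 5 (source M) of the 6 libraries was left out. With names counted in every library it held in slick L and slick H and was lost for 2 of the 6 in source M. Among names counted in every library, ola-miR-731 was lower in slick H (-0.89) and higher in source H (0.80). Over all names neither change was called (edgeR quasi-likelihood test, adjusted p = 0.0897 and 0.0883). Each of the 2 calls of ola-miR-731 was also lost when any of 4 of the 6 libraries was left out. Over all 7 groups both members differed (edgeR quasi-likelihood test, adjusted p = 0.00141 for ola-miR-462 and 0.00279 for ola-miR-731), where 62.6% of names were called, and 67.3% of the names counted in every library. Across the 21 libraries the SD of log2 CPM was 1.08 for ola-miR-462, the eighth widest of 99 names, and 0.546 for ola-miR-731, beside a median of 0.632 over the names.

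For ola-miR-462 the slick L libraries L4, L5 and L6 held 1037, 2096 and 1847 CPM, the slick M libraries M4, M5 and M6 held 909, 310 and 1262 CPM, and the slick H libraries H4, H5 and H6 held 1359, 1123 and 1062 CPM. All slick libraries but M5 were above the 3 controls. The source L libraries L1, L2 and L3 held 949, 735 and 387 CPM, the source M libraries M1, M3 and M5 held 299, 237 and 247 CPM, and the source H libraries H1, H2 and H3 held 134, 305 and 463 CPM. The controls C4, C5 and C6 held 440, 491 and 406 CPM. Source M lay wholly below the controls, while source L and source H overlapped them. How many other names lie apart from the controls on this scale was not counted. With each exposure scaled with control alone, a lack of overlap was common. It held for 42.8% of names at slick L, 36.1% at slick H and 54% at source M. The mean level of ola-miR-462 was 1660 ± 554 CPM in slick L, 827 ± 481 in slick M and 1181 ± 157 in slick H (SD, n = 3 each). It was 690 ± 283 CPM in source L, 261 ± 33.3 in source M and 301 ± 164 in source H, and 446 ± 42.4 CPM in control. From high to low the order was slick L, slick H, slick M, source L, control, source H, source M. The ranges of all 6 pairs of neighbours in that order overlapped, so the order of neighbours is not resolved.

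For ola-miR-731 the slick L libraries held 665, 406 and 562 CPM, the slick M libraries 409, 407 and 295 CPM and the slick H libraries 248, 211 and 329 CPM. All 6 slick M and slick H libraries were below the controls, and slick L overlapped them. The share of all names that lie apart from control was again not counted on this scale. With each exposure scaled with control alone it was 18.9% at slick M and 36.1% at slick H. The source L libraries held 637, 656 and 593 CPM, the source M libraries 737, 396 and 458 CPM and the source H libraries 871, 781 and 611 CPM. The controls held 617, 511 and 455 CPM. Each source group overlapped the controls on this scale. The mean level of ola-miR-731 was 544 ± 131 CPM in slick L, 370 ± 65.4 in slick M and 263 ± 60.4 in slick H. It was 629 ± 32.2 CPM in source L, 530 ± 182 in source M and 755 ± 132 in source H, and 528 ± 82.3 CPM in control (SD, n = 3 each). Its order was source H, source L, slick L, source M, control, slick M, slick H. Of the 6 pairs of neighbours 5 overlapped, and the exception was slick M, at most 409 CPM, below control, at least 455 CPM.

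**Figure D1:**
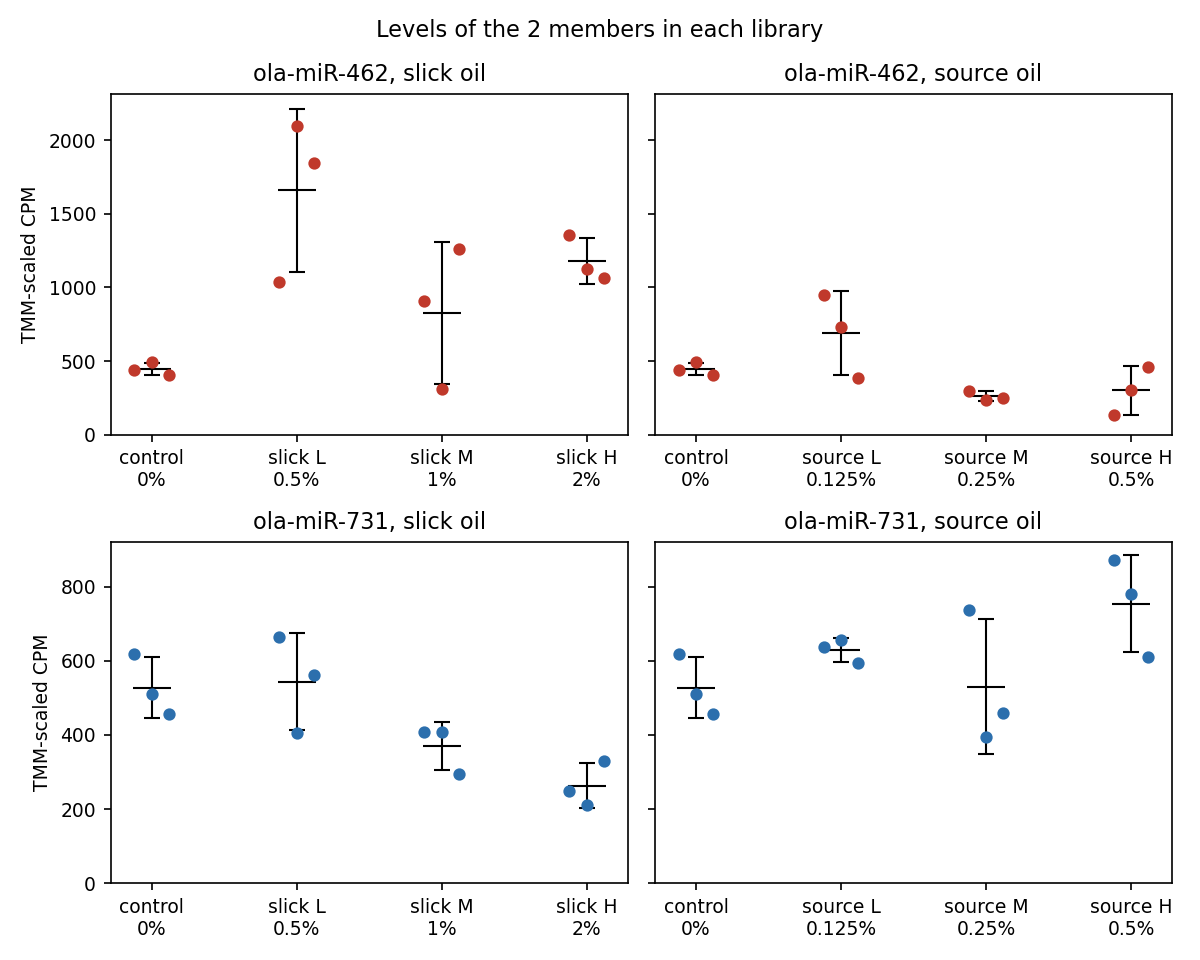
TMM-scaled CPM of ola-miR-462 (top) and ola-miR-731 (bottom) in each library (points) by oil and nominal concentration, with the group mean and SD (bars, n = 3); the controls are the same in both columns. ola-miR-462 averaged 1660 CPM in slick L and 261 CPM in source M against 446 CPM in control, and ola-miR-731 averaged 263 CPM in slick H and 755 CPM in source H against 528 CPM in control.

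The count of one member over the other within a library needs no scaling between libraries. In slick L the libraries L4, L5 and L6 held 1.56, 5.17 and 3.29 reads of ola-miR-462 per read of ola-miR-731. In slick M the ratio was 2.22 in M4, 0.762 in M5 and 4.28 in M6, and in slick H it was 5.47 in H4, 5.32 in H5 and 3.23 in H6. In control it was 0.713, 0.960 and 0.892. So ola-miR-731 was the more frequent member in all 3 controls, while ola-miR-462 was the more frequent one in 8 of 9 slick libraries, and those 8 lay above the highest control.

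Source oil went the other way at its 2 higher doses. In source L the ratio was 1.49 in L1, 1.12 in L2 and 0.652 in L3, the library that stood with source M and source H. In source M it was 0.406 in M1, 0.599 in M3 and 0.540 in M5, and in source H it was 0.154 in H1, 0.391 in H2 and 0.757 in H3. Of these 6 source M and source H libraries 5 lay below the lowest control, and the exception was H3. The ratio thus spanned 0.154 to 5.47 over the 21 libraries, and the counting error of its log2 value was 0.0270 to 0.0631, far below the SD between libraries of a group.

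The mean log2 ratio was 1.58 ± 0.87 in slick L, 0.95 ± 1.26 in slick M, 2.18 ± 0.43 in slick H, 0.04 ± 0.60 in source L, -0.98 ± 0.29 in source M, -1.49 ± 1.15 in source H and -0.24 ± 0.22 in control (SD, n = 3 each). A permutation test over the 21 libraries found a difference among the groups (F = 8.65, p = 0.00051 with 100000 resamples, adjusted p = 0.0051 over 10 ratio tests). Over the same groups 62.6% of single names were called by edgeR. How many other pairs of names differ in ratio, or do not overlap with control, was not counted. Against control, slick L, slick H and source M did not overlap and reached the smallest two-sided p that an exact permutation test of 3 against 3 can give, 0.1 (adjusted p = 0.143). The exact permutation test gave p = 0.3 for slick M, 0.5 for source L and 0.2 for source H. At the shared nominal 0.5%, the mean log2 ratio in slick L lay 3.06 above that in source H, again with p = 0.1.

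The slope of the log2 ratio was 1.00 per percent of slick oil (two-sided permutation test, p = 0.0207) and -2.93 per percent of source oil (p = 0.0153), over 12 libraries each. Neither slope passed after adjustment over the 10 ratio tests (adjusted p = 0.0691 for each). In the same permutation test the slick slope gave p = 0.0508 without slick H library H4 (slope 0.954) and 0.0501 without control C4 (slope 0.881). The source slope was -1.78 with a permutation p of 0.0855 without source H library H1, which had the lowest ratio of all.

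**Figure D2:**
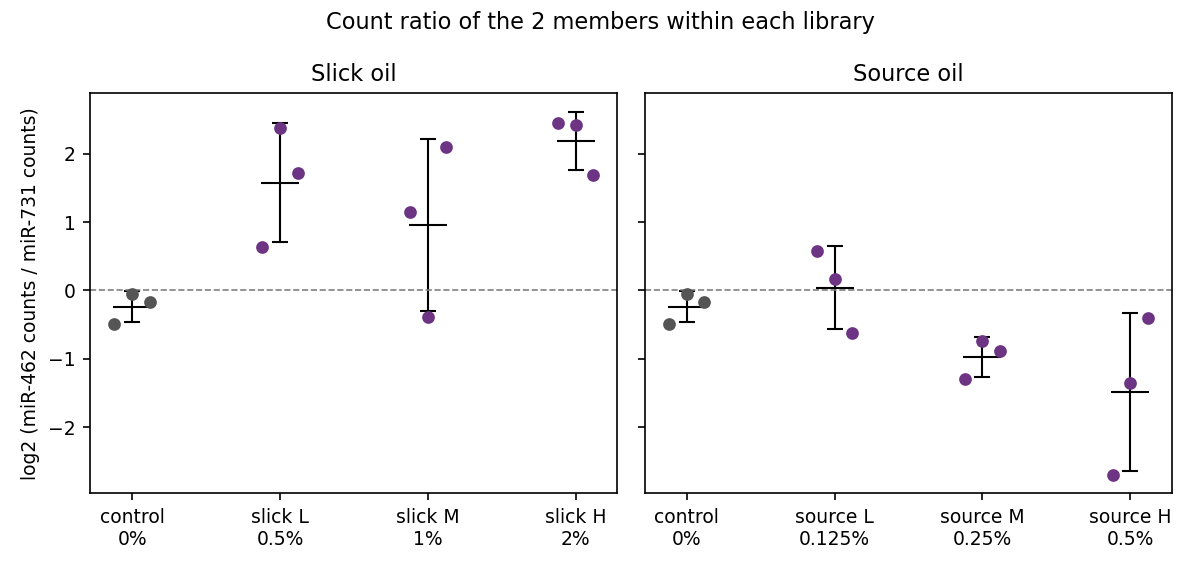
Log2 of ola-miR-462 counts over ola-miR-731 counts in each library (points) by oil and nominal concentration, with the group mean and SD (bars, n = 3); the dashed line marks equal counts. The 8 slick libraries other than M5 lie above all 3 controls, and 5 of the 6 source M and source H libraries lie below them.

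Each exposure was then tested against control within its own table. Many names had 0 counts in part of the libraries and high counts elsewhere, so each test is given over all names that passed a low-count filter and again over the complete names, those counted in every library of the comparison. Both members belong to both sets. The ± after a log2 fold change is its approximate SE.

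At the lowest slick dose ola-miR-462 rose, with the highest log2 fold change of the complete names, and ola-miR-731 did not pass. The 3 slick L libraries held 896 to 1779 CPM of ola-miR-462 and the 3 controls 306 to 379 CPM in this table, with no overlap, as for 42.8% of names. The log2 fold change was 2.02 ± 0.30 (adjusted p = 0.0148), where 14.5% of 159 names were called. Among complete names it was 1.97 ± 0.25 (adjusted p = 0.000302), the highest of 114, where 38.6% were called. For ola-miR-731 the log2 fold change was 0.19 ± 0.21 (adjusted p = 0.73) and the groups overlapped. The call of ola-miR-462 over all names was lost without slick L library L5 (1.81, adjusted p = 0.0528), L6 (1.96, 0.0692), control C4 (1.88, 0.0795), C5 (2.13, 0.0605) or C6 (1.98, 0.103). Among complete names it held without any one library.

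In slick M the libraries disagreed. M4 and M6 held 909 and 1262 CPM of ola-miR-462 on the scale of the 21 libraries, while M5 held 310 CPM, below the 3 controls at 406 to 491 CPM. The log2 fold change of 0.97 ± 0.51 did not pass (adjusted p = 0.439, with 1.26% of 159 names called). Among complete names it was 0.97 ± 0.37 (adjusted p = 0.151, with 4.46% of 112 called). Without M5, the low library, it was 1.35 (adjusted p = 3.58e-07). That was the only call among 6 removals of 1 library, which gave 0.54 to 1.35 with adjusted p up to 0.481. Over all names no removal of 1 library brought a call of ola-miR-462 (adjusted p of 0.0751 or more). The log2 fold change of ola-miR-731 was -0.41 ± 0.21 (adjusted p = 0.439), although its 3 slick M libraries all lay below the controls in this table. Groups did not overlap for 18.9% of names.

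At the highest slick dose the members parted. The 3 slick H libraries held 938 to 1148 CPM of ola-miR-462 against 295 to 394 CPM in control, and the log2 fold change was 1.57 ± 0.18 (adjusted p = 0.0117), where 10.1% of 158 names were called. For ola-miR-731 the 3 slick H libraries held 177 to 291 CPM against 374 to 414 CPM in control. Neither member's groups overlapped, as for 36.1% of names. Its log2 fold change was -0.82 ± 0.22 over all names, not called (adjusted p = 0.0897), and it was called among complete names (-0.89 ± 0.22, adjusted p = 0.0165), where 27.4% of 113 were called. Over all names ola-miR-462 was not called without control C5 (1.68, adjusted p = 0.054) or C6 (1.52, 0.0834), and among complete names it held without any one library. Among complete names ola-miR-731 was not called without slick H library H5 (-0.74, adjusted p = 0.056), control C4 (-0.80, 0.0607), C5 (-0.82, 0.0579) or C6 (-0.86, 0.0718).

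Over the 12 libraries of control and slick oil ola-miR-731 was the member whose slope on concentration was called. The level of ola-miR-731 fell by 0.51 ± 0.12 log2 units per percent of slick oil (adjusted p = 0.0353), where 5.47% of 128 names were called, and by the same amount among complete names (adjusted p = 0.021, 12.3% of 106 called). The slope of ola-miR-462 was 0.34 ± 0.35 (adjusted p = 0.666), and its level was highest at the lowest slick dose. Over all names the ola-miR-731 slope was not called without slick M library M4 (-0.51, adjusted p = 0.0566), slick H libraries H4 (-0.47, 0.128) or H5 (-0.44, 0.135), or control C4 (-0.51, 0.11), C5 (-0.54, 0.063) or C6 (-0.54, 0.096). Among complete names it was not called without H4 (-0.47, adjusted p = 0.083), H5 (-0.43, 0.0703) or C4 (-0.50, 0.0756).

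Source L gave no call for either member, and 0% of its 152 names were called by edgeR's quasi-likelihood test, with 24 at an unadjusted p under 0.05 and 26 called by DESeq2. Libraries L1 and L2 held 949 and 735 CPM of ola-miR-462 on the scale of the 21 libraries, above the controls, and L3 held 387 CPM, below them. The log2 fold change was 0.63 ± 0.35 (adjusted p = 0.451) for ola-miR-462 and 0.27 ± 0.16 (adjusted p = 0.476) for ola-miR-731, whose groups did not overlap (438 to 463 CPM in source L and 355 to 406 CPM in control in this table), as for 28.9% of names. Among complete names, of which 0% of 110 were called, ola-miR-462 stood at 0.70 ± 0.34 (adjusted p = 0.235). Without L3 it was 0.97 (adjusted p = 0.0212) among complete names and 0.94 (adjusted p = 0.157) over all names. For complete names that was the only call among 6 removals of 1 library, which gave 0.36 to 0.97 with adjusted p up to 0.506.

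In source M ola-miR-462 was lower, while ola-miR-731 did not pass. The 3 source M libraries held 179 to 222 CPM of ola-miR-462 against 318 to 364 CPM in control, with no overlap, as for 54% of names. The log2 fold change was -0.75 ± 0.15 (adjusted p = 0.0228), where 24% of 150 names were called and the median of all names was 0.32. Among complete names it was -0.76 ± 0.21 (adjusted p = 0.0176), where 56.5% of 108 were called. For ola-miR-731 the log2 fold change was 0.03 ± 0.27 (adjusted p = 0.974). It turned to -0.25 when libraries were scaled by total counts, which moved the median of all names by -0.20, and to -0.26 without source M library M1. The ola-miR-462 call over all names was lost under that scaling (-1.001, adjusted p = 0.118), in a joint fit of the 21 libraries (-0.76, 0.196), with no low-count filter (-0.73, 0.0681), and without source M library M3 (-0.68, 0.0875), M5 (-0.72, 0.0624), control C4 (-0.78, 0.0839), C5 (-0.64, 0.124) or C6 (-0.79, 0.122). It was lost among complete names without C5 (-0.65, adjusted p = 0.0728) or C6 (-0.78, 0.0595).

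At the highest source dose ola-miR-731 was higher among complete names, and ola-miR-462 did not pass. The 3 source H libraries held 492 to 698 CPM of ola-miR-731 against 321 to 407 CPM in control, with no overlap, as for 50% of names. Its log2 fold change was 0.70 ± 0.23 over all names, not called (adjusted p = 0.0883, with 9.38% of 160 called), and it was called among complete names (0.80 ± 0.23, adjusted p = 0.0215, with 50% of 110 called). Scaled by total counts, a choice that shifted the median of all names by -0.32, it was 0.37 among complete names (adjusted p = 0.264). The call there was also lost without source H library H2 (0.82, adjusted p = 0.058), control C4 (0.77, 0.082), C5 (0.74, 0.0974) or C6 (0.71, 0.116), and over all names ola-miR-731 was called without H3 (0.75, adjusted p = 0.0492). For ola-miR-462 the log2 fold change was -0.38 ± 0.48 (adjusted p = 0.737), with 108 to 373 CPM in source H and 286 to 316 CPM in control. It was -0.29 among complete names, and 0.052 without H1. The summed level of the 3 white blood cell names, 2 of which (tgu-miR-142-5p, ola-miR-142) have identical counts, was 34.3 to 79.4 CPM in slick L, 67.5 to 108 CPM in slick M and 47.2 to 60.0 CPM in slick H. It was 35.5 to 149 CPM in source L, 123 to 209 CPM in source M, 113 to 249 CPM in source H and 67.4 to 153 CPM in control. The third name, mmu-miR-142b, widened these ranges, with 53.2 CPM in control C6 against 5.25 in C4 and 3.58 in C5. Alone, ola-miR-142 held 15.6 to 24.4 CPM in slick L, 31.6 to 32.9 in slick M and 20.5 to 27.7 in slick H. It held 16.1 to 72.2 CPM in source L, 58.8 to 96.4 in source M, 38.3 to 123 in source H and 31.9 to 50.1 in control. The summed level of the 2 muscle names was 268469 to 372370 CPM in slick L, 197704 to 293912 CPM in slick M and 254926 to 395171 CPM in slick H. It was 467231 to 581763 CPM in source L, 218623 to 887855 CPM in source M, 524423 to 716844 CPM in source H and 193609 to 334395 CPM in control. This sum was nearly all ssa-miR-206-5p (192500 to 887011 CPM per library), and rno-miR-133b-5p ran otherwise. The latter held 1136 to 2042 CPM in slick L and 1275 to 2849 CPM in slick H against 551 to 1109 CPM in control. In source L, where the sum lay above control, rno-miR-133b-5p held 572 to 749 CPM. The summed level of the 3 nervous system names was 230487 to 283911 CPM in slick L, 255724 to 438085 CPM in slick M and 245667 to 337004 CPM in slick H. It was 288939 to 334882 CPM in source L, 264728 to 301185 CPM in source M, 224208 to 281208 CPM in source H and 316249 to 387560 CPM in control. This sum was nearly all aca-miR-9-5p (224079 to 437839 CPM per library). In source M, where the sum lay below control, dre-miR-124-4-5p held 310 to 466 CPM against 163 to 228 CPM in control. In source L it held 106 to 123 CPM. For sma-miR-124b-5p source M held 4.16 to 6.41 CPM and control 1.42 to 3.11 CPM. All these sums use TMM-scaled CPM over the filtered names held in all 6 tables, another scale than that of the member levels. With that scaling they are not shares of 1e6 counts. The part of these sums in the member values was not tested. Neither member had a slope on source concentration that passed (ola-miR-462 -2.10 ± 1.08 per percent, adjusted p = 0.23, and ola-miR-731 0.64 ± 0.49, adjusted p = 0.408), where 16.5% of 121 names and 23.8% of 105 complete names were called.

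The authors' deposited table, made with DESeq2 per the submitters' processing notes, called ola-miR-462 higher in slick L (log2 fold change 1.95, adjusted p = 1.32e-09) and slick H (1.54, 8.79e-20) and lower in source M (-0.78, 7.91e-06). For ola-miR-731 the authors' deposited table called a fall in slick H (-0.81, adjusted p = 0.00224) and a rise in source L (0.31, 0.0382). In source H it gave ola-miR-731 a log2 fold change of 0.57 with an adjusted p of 0.0508. The authors' deposited table called 42.7% of its listed names in slick L, 40.2% in slick H, 14.0% in source L, 50.9% in source M and 52.3% in source H. All these tests share the 3 control libraries.

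The oils were also compared directly, without controls. At the shared nominal 0.5%, ola-miR-462 stood 2.51 ± 0.64 log2 units higher in slick L than in source H, not called over all names (adjusted p = 0.0675, with 11.5% of 139 called) and called among complete names (2.52 ± 0.49, adjusted p = 0.00427, with 40.5% of 111 called). The difference of ola-miR-731 was -0.39 ± 0.24 (adjusted p = 0.309). The L groups, at 0.5% slick and 0.125% source oil, gave 1.28 ± 0.43 (adjusted p = 0.33) for ola-miR-462 and -0.23 ± 0.23 (adjusted p = 0.698) for ola-miR-731, with 0% of 132 names and of 111 complete names called. Of the 132 names 15 had an unadjusted p under 0.05 and 15 were called by DESeq2, and of the 111 complete names 20 had an unadjusted p under 0.05. Scaled by total counts the ola-miR-731 value of the L groups turned from -0.23 to 0.23. That choice shifted the median of all names by 0.33 to 0.48 in the 4 comparisons of the oils.

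The M groups, at 1% slick and 0.25% source oil, differed by 1.60 ± 0.54 in ola-miR-462 over all names (adjusted p = 0.105, 11% of 127 called) and by 1.70 ± 0.43 among complete names (adjusted p = 0.0111, 39.4% of 104 called). In ola-miR-731 they differed by -0.59 ± 0.31 (adjusted p = 0.245). The H groups, at 2% slick and 0.5% source oil, differed in both members among complete names, in opposite directions. Over all names ola-miR-731 was lower in slick H by a log2 fold change of -1.56 ± 0.31 (adjusted p = 0.0344, with 13% of 138 called), and -1.15 with total counts as scaling (adjusted p = 0.0615). In the same groups ola-miR-462 was higher in slick H by 1.96 ± 0.46 (adjusted p = 0.0519), and by 1.93 ± 0.44 among complete names (adjusted p = 0.0132), where ola-miR-731 stood at -1.56 ± 0.29 (adjusted p = 0.00602, 38.7% of 111 called). Over all names the ola-miR-731 call was lost without slick H library H4 (-1.62, adjusted p = 0.0656), H5 (-1.49, 0.0888) or H6 (-1.83, 0.0689), or source H library H1 (-1.40, 0.0555) or H2 (-1.62, 0.108), and among complete names it held without any one library. Among complete names the ola-miR-462 call was lost without slick H library H4 in the H groups (1.76, adjusted p = 0.0634) and without slick M library M4 in the M groups (1.61, 0.0549). Over all names ola-miR-462 was called in the M groups without slick M library M5 (2.01, adjusted p = 0.042), and in the H groups without source H library H1 (1.61, 0.0496) or H3 (2.37, 0.0425). At the shared 0.5% it was called over all names without source H library H3 (3.14, adjusted p = 0.0389). Scaled by total counts it was called over all names at the shared 0.5% (2.89, adjusted p = 0.0252) and in the H groups (2.39, 0.0296).

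**Figure D3:**
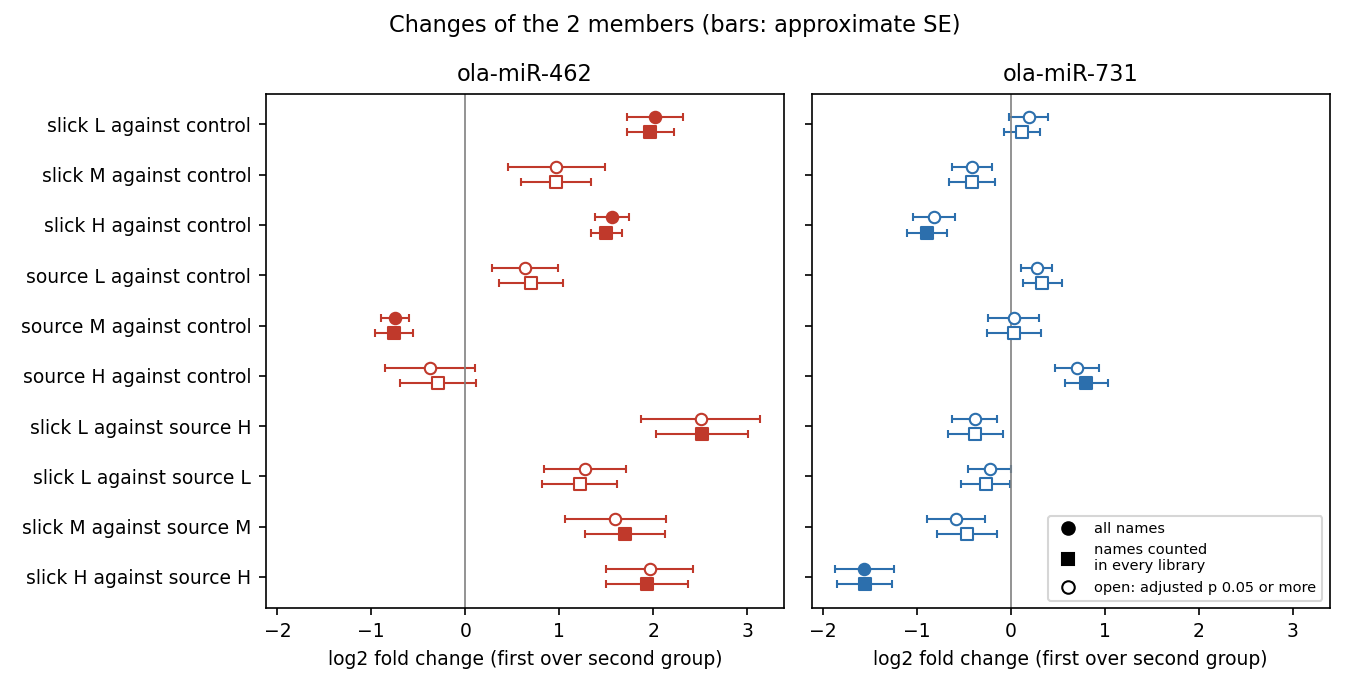
Log2 fold change (first group over second) of ola-miR-462 (left) and ola-miR-731 (right) in the 6 exposures against control and the 4 comparisons of the oils, over all names (circles) and names counted in every library (squares). Filled symbols have an adjusted p under 0.05 and bars are approximate SE; ola-miR-462 reaches 2.02 in slick L and -0.75 in source M against control, and ola-miR-731 -1.56 in slick H against source H.

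The names whose levels ran most like each member were found by Pearson's r of log2 CPM over the 21 libraries, among the 98 other names counted in all of them. These values describe libraries that share their groups and the set of 7 that stood apart. Each is also given within the 14 other libraries and within the 7. Both sets still hold more than 1 group, so r within them also carries differences between groups. The sets were split on a component of the same names, the members among them. Closest to ola-miR-462 was tgu-miR-126-5p, of the family that endothelial cells make, with r = 0.96 over all libraries, 0.95 within the 14 and 0.92 within the 7. Next came sha-miR-92a and oan-miR-20a-5p, both of the miR-17-92 clusters, with lower values within the sets. For sha-miR-92a r was 0.85 over all libraries, 0.71 within the 14 and 0.64 within the 7, and for oan-miR-20a-5p it was 0.84, 0.64 and 0.60 in the same order. Most opposed was oan-miR-145-5p, a smooth muscle miRNA, with r = -0.90 over all libraries, -0.83 within the 14 and -0.79 within the 7. The white blood cell names tgu-miR-142-5p and ola-miR-142, with the same counts, came next with r = -0.87, -0.69 and -0.80. The other member, ola-miR-731, ranked 74 of 98 in likeness to ola-miR-462 with r = -0.49, and -0.28 within the 14 and -0.19 within the 7.

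The endothelial list held this 1 name, which was counted in every library, and its 7 group means stood in the same order as those of ola-miR-462. It averaged 24514 ± 10441 CPM in slick L, 16442 ± 11353 in slick M, 21498 ± 4883 in slick H, 12760 ± 7839 in source L, 2619 ± 151 in source M, 3885 ± 2531 in source H and 7698 ± 824 in control (SD, n = 3 each). The low slick M library M5, which held the least ola-miR-462 of its oil, was also the lowest slick library for tgu-miR-126-5p, at 6547 CPM. Against control its log2 fold change was 1.79 ± 0.39 in slick L (adjusted p = 0.0452), 1.64 ± 0.23 in slick H (adjusted p = 0.0148) and -1.53 ± 0.15 in source M (adjusted p = 0.00447), the exposures in which ola-miR-462 was called. Per 1000 units of tgu-miR-126-5p there were 70.1 of ola-miR-462 in slick L, 51.3 in slick M, 55.7 in slick H, 60.9 in source L, 99.4 in source M, 88.3 in source H and 58.0 in control (geometric means of CPM). The SD of this log2 ratio over the 21 libraries was 0.461, against 1.08 for log2 ola-miR-462 itself and 1.43 for log2 of ola-miR-462 over ola-miR-731. Because tgu-miR-126-5p was picked as the name closest to ola-miR-462 in these same libraries, the likenesses listed here partly follow from that choice. They are not separate evidence. The part of the endothelial marker in the ola-miR-462 values was not tested.

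Closest to ola-miR-731 was ola-miR-187, with r = 0.79 over the 21 libraries, 0.80 within the 14 and 0.84 within the 7, followed by oan-miR-145-5p with r = 0.74, 0.70 and 0.51 and ssc-let-7i with r = 0.68, 0.55 and 0.68 in the same order. Most opposed were ola-miR-106a (r = -0.76, -0.70 and -0.82) and ola-miR-17 (-0.74, -0.60 and -0.86), of the miR-17-92 type of clusters, and the muscle family name rno-miR-133b-5p (-0.71, -0.70 and -0.70). In source H against control ola-miR-187 had a log2 fold change of 1.41 ± 0.23 (adjusted p = 0.0296), and in slick H -0.50 ± 0.22 (adjusted p = 0.246).

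**Figure D4:**
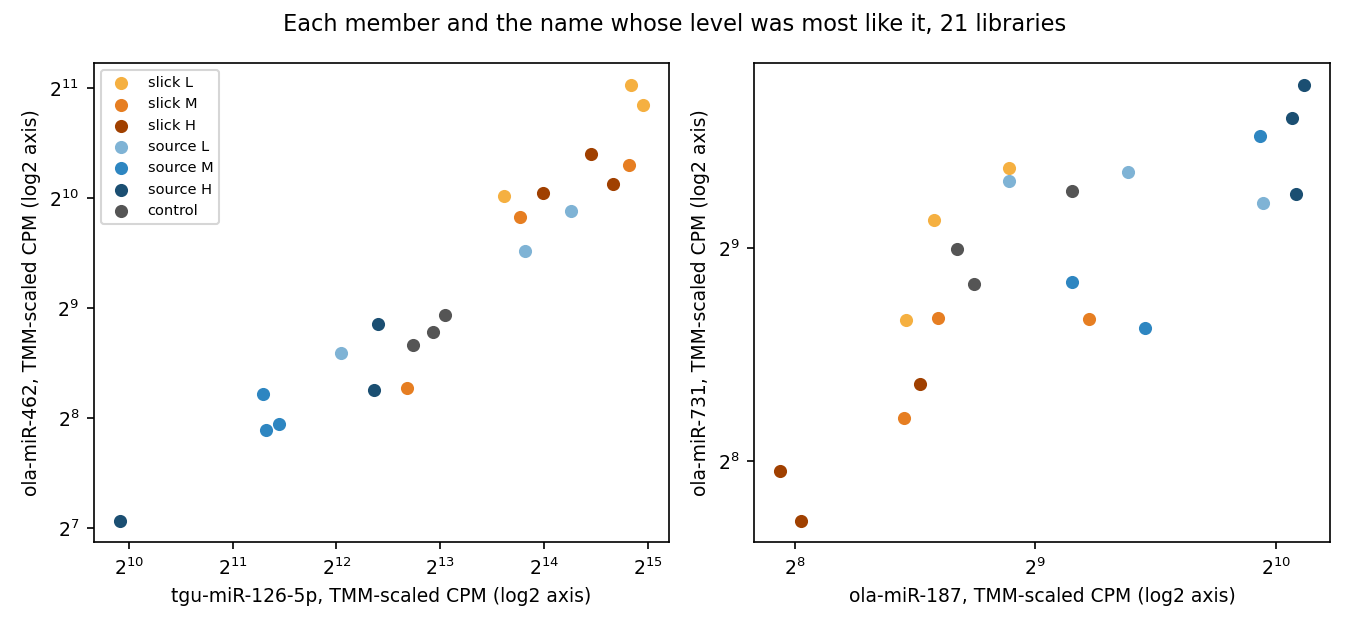
TMM-scaled CPM of ola-miR-462 against tgu-miR-126-5p (left) and of ola-miR-731 against ola-miR-187 (right) in the 21 libraries, on log2 axes, with 1 point per library coloured by group. Pearson's r of log2 CPM is 0.96 on the left and 0.79 on the right.

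Other families linked to low oxygen, from work on human tumour cells (miR-210, miR-23, miR-24, miR-26, miR-27, miR-103, miR-107 and miR-181), gave mixed directions. Over all names 4 of 17 rose and 2 fell in slick L, with a list median of 0.01 against 0.07 for all names, and 4 of 19 rose and 2 fell in slick H (median -0.01 against 0.06). Of all names 14.5% were called in slick L and 10.1% in slick H. The names that rose were the same 4 in both, namely oar-miR-23b (1.81 in slick L and 2.09 in slick H), ssa-miR-23b-5p (1.86 and 1.63), dre-miR-23a-3-5p (1.44 and 1.69) and ssa-miR-181b-5p (0.89 and 1.19). All but the last were names of the miR-23 family and may not be separate measurements. In slick L dre-miR-23a-3-5p held 518, 542 and 535 CPM and oar-miR-23b 556, 637 and 591 CPM. Those that fell were hsa-miR-181b-2-3p (-0.68 in slick L and -0.86 in slick H), cgr-miR-26a in slick L (-0.83) and aca-miR-26-5p in slick H (-0.90). Names of miR-181 thus went both ways, though by their names the one that rose is a 5p arm and the one that fell a 3p arm. In slick M and source L edgeR called 0 of 16 in each, with 6 of them in slick M and 4 in source L at an unadjusted p under 0.05. In source M 3 of 16 rose and 1 fell over all names, of which 24% were called, and in source H 2 of 17 rose, where 9.38% were called. Those that rose were miR-181 names. Among complete names 8 of 13 rose and 2 fell in source M, and 7 of 15 rose and 3 fell in source H, where 56.5% and 50% of complete names were called. These included miR-24, whose 3 names have the same values in the source and control libraries and are 1 measurement there (0.54 in source M and 0.89 in source H for fru-miR-24-5p), and in source M oar-miR-23b (1.16, adjusted p = 0.0183). In slick L and slick H the name mdo-miR-24-3p departs from the others in 1 library each. Among complete names 6 of 14 rose and 2 fell in slick L (38.6% called), 2 of 14 rose in slick M (4.46%) and 5 of 15 rose and 2 fell in slick H (27.4%). The only name tested of miR-210, a family widely raised by low oxygen in mammals, was ola-miR-210-5p, and its SE of 2.19 to 3.54 log2 units left its change unresolved in the 5 tables that hold it.

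Families tied to innate immunity and inflammation (miR-21, miR-142, miR-146, miR-150, miR-155 and miR-223) had 5 or 6 names tested per exposure. Over all names 1 was called in any exposure, tgu-miR-155-5p, a family raised in activated immune cells of mammals, which was lower in source M (-1.58 ± 0.24, adjusted p = 0.0125). Of all names 24% were called in source M, 14.5% in slick L, 10.1% in slick H, 9.38% in source H, 1.26% in slick M and 0% in source L. The name tgu-miR-155-5p stood at 0.18 ± 0.24 in slick L and 0.16 ± 0.32 in slick H, where ola-miR-462 was higher. Among complete names it was lower in source M (-1.60, adjusted p = 0.00432) and source H (-1.61, adjusted p = 0.0267). The miR-142 pair named above, 1 measurement under 2 names, was lower among complete names in slick L (-1.06) and slick H (-0.85) and higher in source M (0.87). Of complete names 38.6% were called in slick L, 27.4% in slick H, 56.5% in source M and 50% in source H.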

How the data were processed

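Small RNA libraries of 21 samples were analysed, 3 in each of 7 groups. Per the file headers, 6 deposited count tables each pair an exposure with the same controls, in whole counts per miRNA name. Each count column was joined to its group only, since the column numbers do not follow the sample numbers. Further deposited tables by the authors give a signal (group means of scaled counts), a score (mean change), log2 fold changes, p-values and adjusted p-values. The submitters' processing notes name DESeq2. For the aligner and genome, the sources used here give no name.

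Where a name stood on more than 1 line the highest count was kept (17 extra lines, none of a member), and 6 blank control cells were filled from the other tables, whose 2550 shared control cells were identical. Totals were 3157670 to 8736995 counts per library, and precision is limited mainly by the spread between libraries. Names passed filterByExpr (minimum count 10, minimum total 15). Tests used edgeR 4.0.16 (quasi-likelihood test, TMM scaling, Benjamini-Hochberg adjustment over all names of a table, threshold 0.05) in R 4.3.3, tested on simulated data. DESeq2 1.42.0 was an alternative. Ratios were compared by permutation in Python 3.11.15 with NumPy 2.4.6.

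The text names both members, the 3 names most and least like each by correlation, and called names of lists of low-oxygen, immune and cell type marker families. Members and lists were chosen with earlier results of these data known.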

Additional observations from a re-analysis of the deposited data

Results flagged for a closer look

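In slick H against source H, ola-miR-731 had a log2 fold change of -1.56 in the direct test of the 2 oils (adjusted p = 0.0344, edgeR quasi-likelihood test), where 13% of 138 names were called. This call over all names was lost when any of 5 of the 6 libraries was left out, and with total counts as scaling. Among complete names it held without any one library. Against the shared controls the log2 fold change of ola-miR-731 was -0.82 in slick H and 0.70 in source H, neither called over all names. The nominal concentrations were 2% and 0.5%, so oil and concentration cannot be told apart.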

How the results depend on the processing

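The controls are 3 libraries shared by all exposures, member counts were never 0, and the spread between libraries rather than depth limits these values. No paired analysis was possible because column numbers in the tables differ from those of the samples. Summing the names of a family gave no separate ratio, since each family has 1 name. Alternatives on complete names (counted in every library of a comparison) were chosen after seeing the data. Of 178 member values under a setting that kept all libraries, 152 kept direction and side of the threshold, as did all 10 ratio values. Adjusted p-values are given after values. The cause of the shifts was not tested.

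Restricting the test to complete names brought calls for ola-miR-731 in slick H (-0.89, 0.0165) and source H (0.80, 0.0215), and for ola-miR-462 in slick L against source H (2.52, 0.00427), slick M against source M (1.70, 0.0111) and slick H against source H (1.93, 0.0132). DESeq2 called the same 5, with -0.84 (0.00141), 0.59 (0.0238), 2.44 (2.19e-05), 1.65 (0.00311) and 2.01 (0.000145), and also ola-miR-462 in slick L against source L (1.29, 0.0397, and 0.0456 on complete names). A joint fit of 21 libraries called ola-miR-731 in slick H (-0.92, 0.0228) and source H (0.68, 0.044) and lost ola-miR-462 in source M (-0.76, 0.196), as did no low-count filter (-0.73, 0.0681). With total counts as scaling ola-miR-462 in source M was -1.001 (0.118), in slick L against source H 2.89 (0.0252) and in slick H against source H 2.39 (0.0296). Under that scaling ola-miR-731 was -1.15 (0.0615) in slick H against source H, -0.25 in source M (-0.21 on complete names), -0.013 in source L on complete names, 0.23 in slick L against source L (0.25 on complete names), and 0.37 (0.264) in source H on complete names.

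The count of names called was 23 in slick L (44 on complete names, 48 by DESeq2, 14 unfiltered, 6 in the joint fit). It was 2 in slick M (5 on complete names, 16 by DESeq2, 0 in the joint fit, where 17 had an unadjusted p under 0.05 in the edgeR test of its own table), and 16 in slick H (31 on complete names, 38 by DESeq2). It was 0 in source L (26 by DESeq2, 4 in the joint fit), 36 in source M (61 on complete names, 67 by DESeq2, 7 with total counts) and 15 in source H (55 on complete names, 62 by DESeq2, 30 with total counts, 29 with RLE scaling, 47 in the joint fit). The slick slope had 7 (13 on complete names, 16 by DESeq2) and the source slope 20 (38 by DESeq2, 12 with total counts, 33 by dose step). Slick L against source H had 16 (45 on complete names, 57 by DESeq2, 32 with total counts), slick L against source L 0 (15 by DESeq2), slick M against source M 14 (41 on complete names, 46 by DESeq2, 0 with total counts) and slick H against source H 18 (43 on complete names, 47 by DESeq2). With total counts the share of calls that were higher was 20% against 53.3% in source H, 28.6% against 42.9% for the slick slope, 16.7% against 5% for the source slope, 81.3% against 56.3% in slick L against source H and 77.3% against 55.6% in slick H against source H.

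Leaving out 1 library at a time, the ratio slope was 0.881 to 1.13 on slick and -3.96 to -1.78 on source concentration. The ola-miR-462 values were 1.81 to 2.31 in slick L, 1.40 to 1.68 in slick H, -0.84 to -0.64 in source M (complete names -0.91 to -0.65), 2.14 to 3.14 in slick L against source H, 1.16 to 2.01 in slick M against source M (complete 1.27 to 2.09) and 1.61 to 2.37 in slick H against source H (complete 1.58 to 2.38). On complete names they were 0.54 to 1.35 in slick M, 0.36 to 0.97 in source L and -0.78 to 0.052 in source H. The ola-miR-731 values were -0.60 to -0.44 for the slick slope (complete -0.60 to -0.43), -1.83 to -1.40 in slick H against source H, -0.26 to 0.19 in source M (complete -0.33 to 0.21) and 0.54 to 0.75 in source H (complete 0.66 to 0.92). On complete names they were -1.13 to -0.74 in slick H, -0.062 to 0.34 in slick L and 0.52 to 1.53 for the source slope. Reversals there were without M1 in source M (-0.26, complete -0.33), C6 in source M (-0.04, complete -0.02), L4 in slick L (complete -0.062) and H1 in source H (complete 0.052). Over single libraries left out the count of calls was 9 to 21 for slick L, for slick M 0 to 8, 1 to 22 for slick H, for source L 0 to 2, 11 to 50 for source M, for source H 0 to 36, 0 to 11 for the slick slope, 0 to 30 for the source slope, 0 to 39 in slick L against source H, 0 to 1 in slick L against source L, 0 to 13 in slick M against source M and 0 to 30 in slick H against source H.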
